A study of Bombus lucorum with 81 samples.

Results

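Workers of the white-tailed bumblebee Bombus lucorum from mid-elevation meadows were compared with workers from lowland meadows of the German Alps, using only meadows grazed by livestock, so that grazing did not differ between the belts. The members were chosen by site: 25 bees from 5 grazed mid-elevation sites and 15 bees from 3 grazed lowland sites, 40 of the 81 bees sequenced. The mid-elevation sites were Wmb2 (1140 m), Wma2 (1245 m), H4 (1330 m), Wmb3 (1420 m) and Wma3 (1423 m), and the lowland sites were Wma1 (766 m), Wmb1 (960 m) and H2 (987 m). Sites with H lie on the Hintersee transect and the others on the Watzmann transect, so that Hintersee gave 5 mid-elevation and 5 lowland bees and Watzmann 20 and 10. Every site gave 5 foraging workers of unknown age and colony, caught with sweep nets in late summer. RNA came from thorax and abdomen after gut, legs, wings and head had been taken off, with 1 library per bee. Bees of 1 site were treated as independent samples, so that p-values over bees measure the spread between individuals and hold no error term for sites.

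The belts differed in more than height. Mean annual temperature was 6.40 to 7.49 °C at the mid-elevation sites and 7.99 to 8.58 °C at the lowland sites. Between 55 and 78 plant species were recorded at the mid-elevation sites, against 43 to 51 at the lowland sites, again with no overlap. Height, temperature and plant richness therefore cannot be told apart here. Plant cover, in the study's units, was 1.25 to 4.10 at 4 of the mid-elevation sites and 9.14 at Wmb2, against 6.46 to 9.33 at the lowland sites. Among the lowland sites, H2 and Wma1 fall in the study's class of high sampling temperature and Wmb1 in its class of low sampling temperature.

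Bumblebees keep the thorax warm by shivering the flight muscles, which burns sugar taken up from nectar and carried in the haemolymph largely as trehalose. The insect fat body, lying mainly in the abdomen, stores energy and makes yolk proteins and enzymes of detoxification. The carcass used here therefore holds flight muscle, fat body, ovary, venom gland, nerve cord, cuticle and blood cells together. In such bulk samples, fewer cells of a type and less RNA per cell cannot be told apart.

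Reads counted on genes amounted to 22240711 to 33784279 per mid-elevation bee (median 27732166) and 15700759 to 32098326 per lowland bee (median 25795717). Totals were higher at mid-elevation (two-sided permutation test over bees, p = 0.00734, n = 25 and 15). All 5 mid-elevation site means lay above all 3 lowland site means (two-sided exact permutation test over sites, p = 0.0357, the smallest value that 5 against 3 sites allow). The slope of log2 CPM (counts scaled to library size) on log2 exon length, which can vary with RNA integrity, had site means of 0.114 to 0.249 at mid-elevation and 0.239 to 0.311 in the lowlands (p = 0.0546 over bees by permutation and 0.107 by the exact test over sites). Per the study's methods, RNA integrity numbers varied widely among its samples, and their part in these values was not tested. Summed CPM of 17 gut-type genes, such as peritrophins, chymotrypsins and mucins, reached 348, 24559 and 61473 in mid-elevation bees (lowest, median, highest) and 365, 639 and 62927 in lowland bees, although the gut had been taken out. Every bee of Wma2 held at least 28711 CPM of these transcripts.

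Few genes differed between the belts beyond the spread between bees. Of 9404 genes tested, 13 were called, meaning that edgeR's quasi-likelihood F test gave a Benjamini-Hochberg adjusted p under 0.05 and that the log2 fold change reached 0.5 in size. That is 0.138% of the genes tested. At mid-elevation 12 genes (0.128%) fell and 1 gene (0.0106%) rose. The genes that fell include a protein kinase, dual oxidase and a gene named for a protein of cilia and flagella, while the gene that rose has no name at hand. At an unadjusted p under 0.05 there were 1502 genes, 586 of them higher (6.23%) and 916 lower (9.74%). Over all genes the median log2 fold change was 0.01 and 52.1% of the values lay above 0. Site means of log2 CPM did not overlap between the belts for 220 genes that were higher (2.34%) and 209 that were lower (2.22%), which is 4.56% of all genes. They did not overlap for 9 of the 13 called genes. The plot of the log2 fold change of all genes against their p shows the called genes at the upper edge of a continuous cloud.

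**Figure D1:**
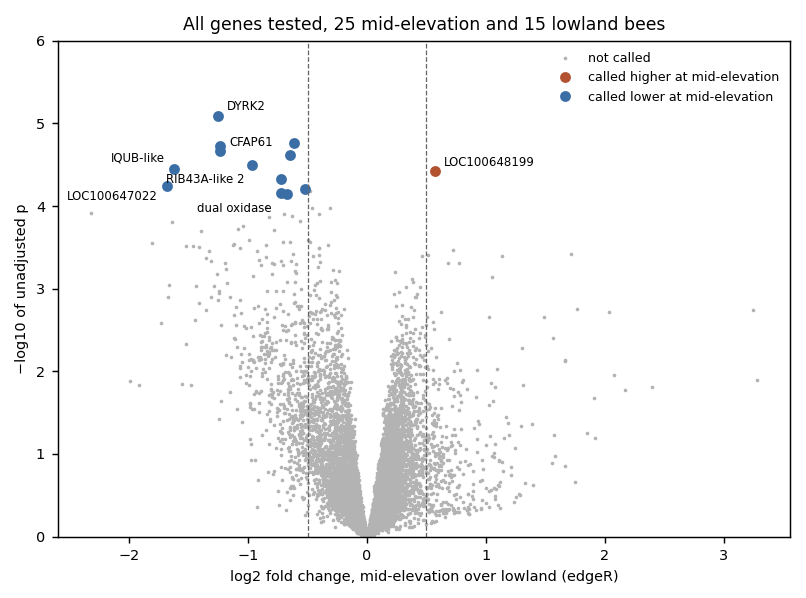
Log2 fold change of mid-elevation over lowland (x axis) against −log10 of the unadjusted p of edgeR (y axis) for the 9404 genes tested, 1 point per gene, with the 13 called genes marked. Of the called genes, 12 lie on the lower side and 1 on the higher side, and their log2 fold changes run from -1.68 to 0.57.

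Protein kinases of the DYRK family phosphorylate serine and threonine residues and activate themselves by tyrosine phosphorylation. The gene for dual specificity tyrosine-phosphorylation-regulated kinase 2 (LOC100642872) had 5.53, 9.11 and 15.8 CPM in mid-elevation bees (lowest, median, highest) and 3.87, 14.8 and 83.8 CPM in lowland bees. The ranges over bees overlapped, but the site means did not, at 7.32 to 12.8 CPM at mid-elevation and 19.2 to 25.3 CPM in the lowlands. It fell by 1.25 on the log2 scale (SE 0.25, edgeR adjusted p = 0.0445). The highest bee, bee 5 of Wmb1, carried 14.4% of the summed CPM of this gene over the 40 bees. The other bees of Wmb1 lay between 3.87 and 14.8 CPM, none of them above the highest mid-elevation bee, so that the mean of that site rests on 1 bee.

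Cilia and flagella share a core of microtubules, the axoneme, and in insects axonemes occur in the tail of sperm and in the sensory neurons of stretch and hearing organs. Cilia- and flagella-associated protein 61 (LOC100646486), part of a complex at the base of a radial spoke in algal flagella, had 2.09, 8.21 and 21 CPM at mid-elevation, against 5.97, 18.1 and 84.8 CPM in the lowlands. It fell by 1.23 (SE 0.26, adjusted p = 0.0445), and its site means were 6.51 to 13.2 CPM at mid-elevation, below the 15.5 to 28.7 CPM of the lowland sites. RIB43A-like with coiled-coils protein 2 (LOC100643477) is not on the list of axoneme genes used here and comes from a family found along the tubules of the algal axoneme. It had 0.654, 1.45 and 3.45 CPM in mid-elevation bees and 1.14, 2.52 and 6.96 CPM in lowland bees, a log2 fold change of -0.97 (SE 0.21, adjusted p = 0.0445). The IQ and ubiquitin-like domain-containing protein gene (LOC100643353), likewise not on that list and in mammals a part of sperm radial spokes, had 0.0685, 0.294 and 1.23 CPM at mid-elevation and 0.113, 1.03 and 2.29 CPM in the lowlands, with a log2 fold change of -1.62 (SE 0.35, adjusted p = 0.0445). Its site means of log2 CPM overlapped between the belts, unlike those of the other 2 genes, and its values rest on few reads per bee.

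A list of axoneme and cilium genes made by name, with tektins, dyneins and the like, had 14 members among the genes tested. CFAP61 was the 1 member called, 5 members were lower and 0 higher at an unadjusted p under 0.05 in edgeR, and 10 of the 14 values lay below 0 (median -0.26, against 0.01 over all genes). Tektin-2 (LOC100645005), a filament protein of the axonemal wall, had 0.375, 0.692 and 1.32 CPM at mid-elevation and 0.511, 0.972 and 2.36 CPM in the lowlands (log2 fold change -0.61, SE 0.18, adjusted p = 0.112) and was not called. Summed over the list, site means came to 114 to 137 CPM at mid-elevation and 147 to 177 CPM in the lowlands, without overlap. A score that weights every gene alike, the average of their centred log2 CPM, did overlap between site means, at -0.23 to 0.06 at mid-elevation and -0.15 to 0.31 in the lowlands. The median of the list lay between -0.37 and -0.09 when each site was left out in turn. Descriptions were at hand for 7 of the 13 called genes and for 1777 genes in all. Many were at hand because the study listed the genes as differing in these bees, with sampling temperature in the lowlands, between belts or with grazing. The names among the called genes are therefore not independent evidence of a theme.

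Dual oxidase (LOC100646100) makes hydrogen peroxide and in Drosophila serves gut immunity and the hardening of cuticle. It had 13.5, 19.8 and 37 CPM in mid-elevation bees and 17.7, 26.8 and 87.4 CPM in lowland bees. It fell by 0.72 on the log2 scale (SE 0.16, adjusted p = 0.0483). Site means were 17.2 to 27.5 CPM at mid-elevation and 27.3 to 39.8 CPM in the lowlands, so that Wmb2, the lowest-lying of the mid-elevation sites, stood level with Wma1, although means of log2 CPM did not overlap.

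The remaining called genes have no description or are listed as uncharacterized. LOC100648199 was the gene that rose: it had 24.4, 38.2 and 72.9 CPM in mid-elevation bees and 19.8, 25.8 and 41.1 CPM in lowland bees (log2 fold change 0.57, SE 0.12, adjusted p = 0.0445). Bees overlapped, but its site means were 35.2 to 51.2 CPM at mid-elevation and 26.9 to 29.9 CPM in the lowlands, without overlap. Among the genes that fell, LOC100647836 had 45.2, 70.6 and 121 CPM at mid-elevation and 65, 98.1 and 273 CPM in the lowlands (log2 fold change -0.65, SE 0.14, adjusted p = 0.0445). At mid-elevation its site mean stood highest at Wmb2, with 88.8 CPM against 66.3 to 70.3 CPM at the other mid-elevation sites. LOC100644676 had 35.8, 48.2 and 88.3 CPM at mid-elevation and 50.5, 70.7 and 121 CPM in the lowlands (log2 fold change -0.61, SE 0.13, adjusted p = 0.0445), and 92.5% of its values were not whole numbers, as happens where reads match several places or genes.

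Some of these values come from genes that share reads or from single bees. LOC105665977 (log2 fold change -1.23, SE 0.25, adjusted p = 0.0445) overlaps a gene on the same strand, LOC100646468, and LOC100644432 (-0.72, SE 0.16, adjusted p = 0.0483) lies within LOC100643844 on the same strand, so that both are uncertain. LOC100647022 had 0.849, 1.61 and 5.1 CPM at mid-elevation and 1.32, 2.46 and 53.6 CPM in the lowlands (log2 fold change -1.68, SE 0.37, adjusted p = 0.0483). Bee 4 of Wmb1 alone carried 37% of its summed CPM, and without that bee the log2 fold change was -0.61. The other 2, LOC100645293 (-0.52) and LOC100644761 (-0.67), were the most abundant, with medians of 152 and 196 CPM in mid-elevation bees and 186 and 296 CPM in lowland bees (adjusted p = 0.0483 for both).

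Of the 5 mid-elevation sites, Wmb2 at 1140 m, the site lowest in height, most often had the mean CPM furthest to the lowland side. This means the highest of the 5 site means where the lowland mean was higher, and otherwise the lowest. Wmb2 was that site in 11 of the 13 called genes, and in 44.2% of all 9404 genes. H4 and Wma3 were that site in 1 called gene each. Such a mean can lie beyond the lowland mean, so that these shares do not measure nearness to it. Wmb2 was also the mid-elevation site with a plant cover like that of the lowland sites, and its part in this was not tested.

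**Figure D2:**
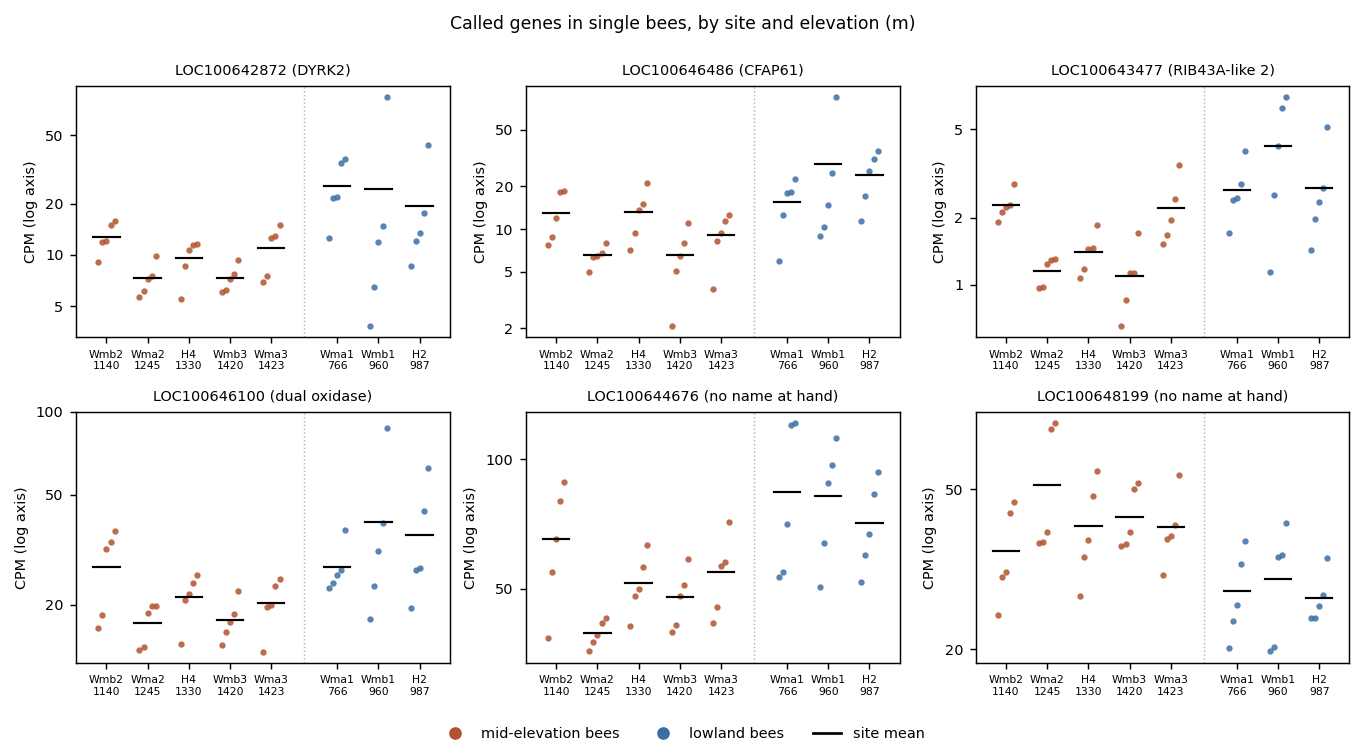
CPM of 6 called genes in single bees (log axis, 1 point per bee) by site and height, mid-elevation sites left and lowland sites right, with a line at each site mean. Bees of the belts overlap in every panel, while for DYRK2 the site means lie at 7.32 to 12.8 CPM at mid-elevation and at 19.2 to 25.3 CPM in the lowlands.

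The number of called genes depended on single sites and bees. It was 0 in edgeR without H4, Wma2, Wma3 or Wmb3, with 865 to 1477 genes at an unadjusted p under 0.05. Without Wmb2 36 genes were called higher and 302 lower, and without Wmb1 42 higher and 119 lower. Without Wma1 the counts were 1 and 51, and without H2 0 and 9. With single bees left out, 20 of 40 fits called no gene, and the most calls came without bee 5 of Wmb2 (17 higher and 221 lower), followed by bee 1 of Wmb1 (25 higher and 121 lower). With site as a random block in limma no gene was called, and 718 had an unadjusted p under 0.05, while counts summed per site gave 0 called genes and 451 at an unadjusted p under 0.05 (4.51% of the 9992 genes tested there). With plant cover as a covariate edgeR called 0 genes, and 329 had an unadjusted p under 0.05. With the gut-type score as a covariate 0 genes were called higher and 2 lower, and with the length slope 0 and 0, with 928 genes at an unadjusted p under 0.05 in edgeR. Each of the 13 genes kept its direction in every fit, which their choice on these same bees favours. With 1 site left out each was called in 2 to 4 of 8 fits, and with 1 bee left out in 11 to 20 of 40 fits.

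**Figure D3:**
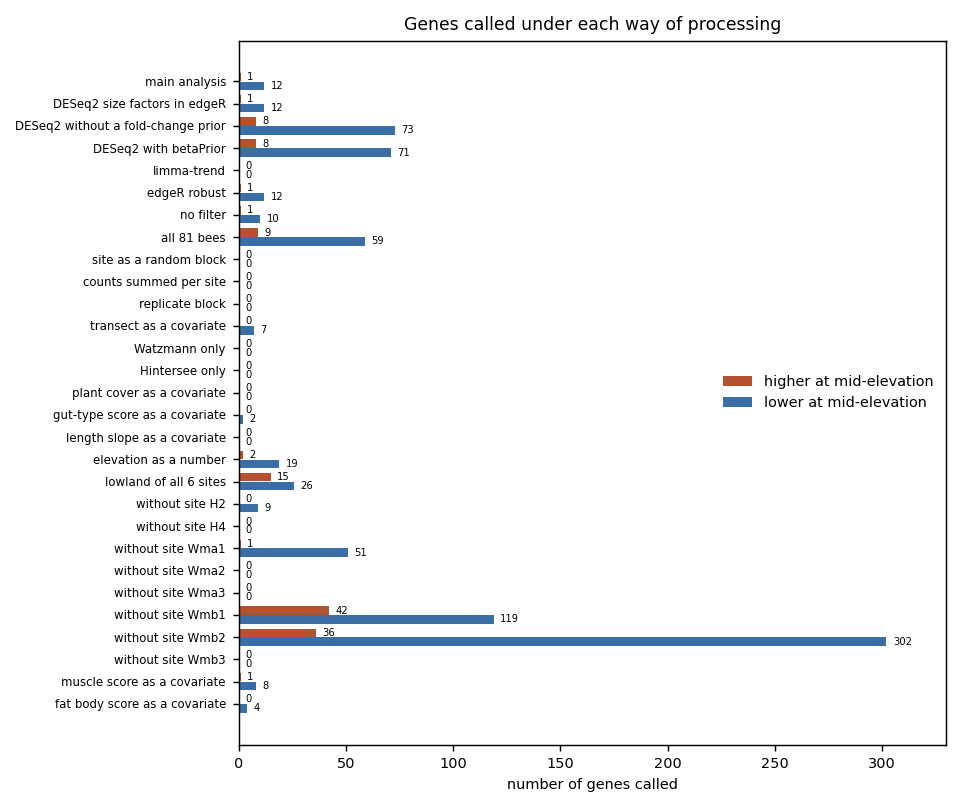
Number of genes called higher and lower at mid-elevation (x axis) under each way of fitting (y axis). The count reported above, 1 higher and 12 lower, lies between 0 calls and the 302 lower calls without Wmb2.

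Genes of muscle contraction lay mostly below 0 but none was called, and the values depended on 1 lowland site. Troponins, tropomyosins and muscle actin form the thin filament, and titin and twitchin are giant proteins that span the sarcomere. Of 11 such genes tested, 0 were called in edgeR and 10 lay below 0 (median -0.98, range -1.35 to 0.56). At an unadjusted p under 0.05, 7 were lower and 0 higher, where 9.74% and 6.23% of all genes were. The 3 members named without use of the study's results had a median of -0.46. All others were named from the study's list of genes that differed with sampling temperature among lowland bees. The titin homolog (LOC105666838) had 2.13, 5.2 and 37.2 CPM in mid-elevation bees and 2.35, 5.69 and 81.4 CPM in lowland bees, a log2 fold change of -1.35 (SE 0.40, adjusted p = 0.115). Muscle actin (LOC100648239) had 33.2, 121 and 550 CPM at mid-elevation and 52.8, 169 and 1415 CPM in the lowlands (-1.14, SE 0.40, adjusted p = 0.161). Summed over the list, muscle transcripts came to 1850, 3705 and 16759 CPM in mid-elevation bees and 2293, 3266 and 34514 CPM in lowland bees. The median was thus higher at mid-elevation while the mean was lower there. Means were 4687 ± 3058 CPM in the 25 mid-elevation bees and 7928 ± 9741 CPM in the 15 lowland bees (SD over bees). At Wmb1 the lowest, median and highest bee had 5667, 8453 and 34514 CPM, whereas at Wma1 they had 2293, 2439 and 3266 CPM. Bee 5 of H2 had 26593 CPM, and bee 5 of Wmb2 held the highest value at mid-elevation. Lowland bees thus fell into many low and few very high values. The bees with the highest muscle sums, bee 5 of Wmb1 and bee 5 of H2, were also the shallowest libraries of the 40, with 15700759 and 16296367 counts, and bee 5 of Wmb2 was the shallowest at mid-elevation, with 22240711. The part of depth in these sums was not tested. Without Wmb1 the median log2 fold change of the list was -0.23, with an unadjusted p under 0.05 in 0 of the 11 members, and without Wma1 it was -1.49.

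**Figure D4:**
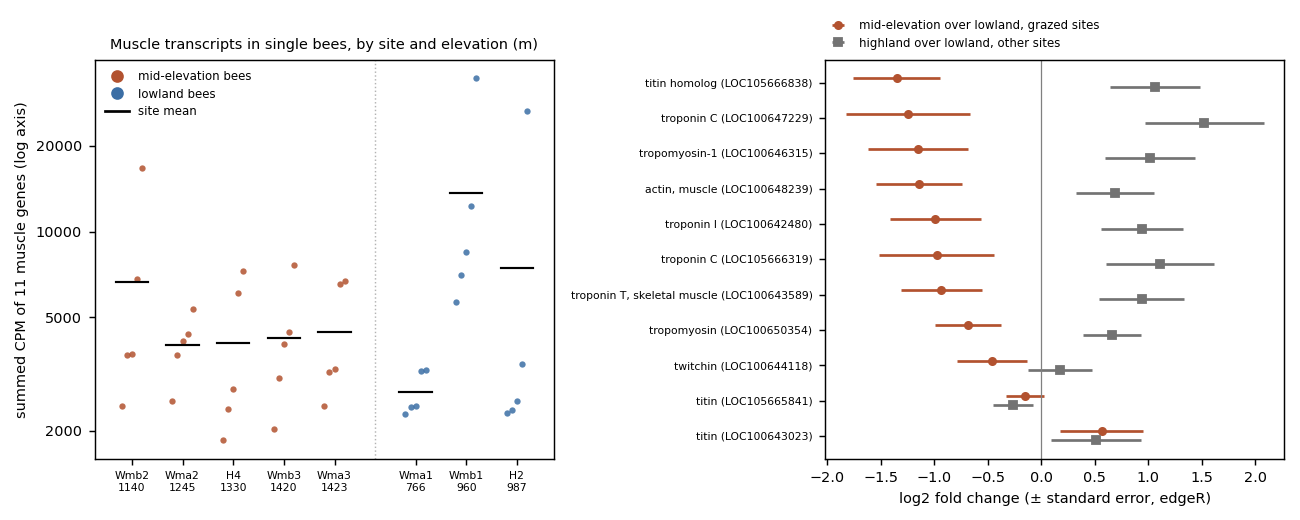
Left, summed CPM of 11 muscle genes in single bees (log axis) with site means, mid-elevation sites left and lowland sites right, where all bees of Wmb1 lie at 5667 CPM or above and all bees of Wma1 at or below 3266 CPM. Right, log2 fold change with standard error of each gene at the grazed sites (circles) and, for highland over lowland, at the other sites (squares), with medians of -0.98 and 0.94.

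Vitellogenin, the precursor of egg yolk, is made in the fat body and carried in the haemolymph of workers too. Vitellogenin (LOC100649251) had 5.13, 13.3 and 140 CPM in mid-elevation bees and 6.42, 14.7 and 358 CPM in lowland bees, so that the medians were close and the highest bees differed. Its log2 fold change was -1.67 (SE 0.48, adjusted p = 0.102), and bee 5 of Wmb1 carried 25.4% of its summed CPM. A vitellogenin-like gene (LOC100643258) had a log2 fold change of -1.99 (SE 0.77, adjusted p = 0.197), with 41% of its summed CPM in bee 2 of H2. These values thus rest on few bees with high values. All 4 fat body genes lay below 0 (median -1.30, 0 called and 2 lower at an unadjusted p under 0.05), hexamerin and fatty acid synthase among them. Summed over the list, fat body transcripts came to 491, 1772 and 8524 CPM in mid-elevation bees and 538, 2932 and 7984 CPM in lowland bees, with overlap. Fatty acid synthase made up most of this sum, with a mean of 2258 of 2641 CPM at mid-elevation and 2756 of 3523 CPM in the lowlands. The sum therefore mainly follows that gene. Bee 5 of Wmb1, the bee with the highest vitellogenin and the highest muscle sum, had a low fat body sum of 600 CPM, so that its vitellogenin did not go with the sum of the list. What part the tissue makeup of single bees has in these values was not tested.

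Most listed genes of sugar breakdown and respiration lay above 0 at mid-elevation, but none was called. Lists from the study's enrichment results were picked on this comparison or on others that share bees with it. They are not independent evidence of a direction. The 13 lists at hand only in part were left out, so a gene not counted as picked from this comparison may stand in a list left out. Of 26 genes of the citrate cycle, 23 lay above 0 (median 0.36) and 1 had an unadjusted p under 0.05 in edgeR, and 20 of the 26 had been picked by the study from the same comparison of belts. The other 6 had a median of -0.05. Of 23 genes of glycolysis, 21 lay above 0 (median 0.25), 2 had an unadjusted p under 0.05 and 16 had been picked there, while the other 7 had a median of 0.15. The 30 genes of oxidative phosphorylation had 26 above 0 (median 0.19) and 0 at an unadjusted p under 0.05. Of these genes 0 stood in a complete list of this comparison, but the study picked them from other comparisons that share bees with it. Their median was -0.18 without Wma1 and 0.01 without H4. Without Wma1 the citrate cycle had a median of 0.13 and glycolysis one of 0.04. Glutathione metabolism (18 of 18 above 0, median 0.22), RNA degradation (23 of 24, median 0.20) and ribosome biogenesis (30 of 31, median 0.12) were picked from this comparison in full, so that their counts restate that choice. DLST (LOC100651798), a subunit of the 2-oxoglutarate dehydrogenase complex of the citrate cycle, had 125, 194 and 755 CPM at mid-elevation and 108, 133 and 312 CPM in the lowlands (log2 fold change 0.57, SE 0.22, adjusted p = 0.198). Cytochrome c1 (LOC100643538), an electron carrier of complex III, had a log2 fold change of 0.50 (SE 0.33, adjusted p = 0.465). Of 11 genes of trehalose and sugar transport, 10 lay above 0 (median 0.17) and 0 had an unadjusted p under 0.05 in edgeR. The Tret1 trehalose transporter LOC100647601 had 0.59 (SE 0.35, adjusted p = 0.409).

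Listed genes of the heat shock response and of the cytochrome P450 family were not called either. Of 16 heat shock and DnaJ chaperone genes 0 were called, 0 were higher and 2 lower at an unadjusted p under 0.05 in edgeR, and the median was -0.02. One was lethal(2)essential for life (LOC105667104), a small heat shock protein, with 95.6, 282 and 1245 CPM at mid-elevation and 111, 208 and 2884 CPM in the lowlands (-1.07, SE 0.39, adjusted p = 0.174), whose median was higher at mid-elevation. The other was heat shock cognate 70 kDa protein 4 (LOC100650203), with 0.219, 0.763 and 20.5 CPM at mid-elevation and 0.526, 3.03 and 44.2 CPM in the lowlands (-1.56, SE 0.61, adjusted p = 0.199). Bee 4 of Wmb1 carried 25.4% of the summed CPM of this cognate gene. Of 13 genes of the cytochrome P450 family, whose members oxidise toxins or, as 306a1 and 315a1 do in insects, make the moulting hormone, 0 were called and 2 were higher at an unadjusted p under 0.05. One of these was 6a14 (LOC100647234), with 6.37, 40.1 and 135 CPM at mid-elevation and 6.51, 16.1 and 52.4 CPM in the lowlands (1.04, SE 0.41, adjusted p = 0.199), with a median well above that of the lowland bees. The other was 9e2 (LOC100647566), with 391, 901 and 2047 CPM at mid-elevation and 349, 570 and 1920 CPM in the lowlands (0.49, SE 0.23, adjusted p = 0.274). Among the mid-elevation sites both genes had their highest mean log2 CPM at Wma2. With 1 site left out, log2 fold changes lay between 0.62 and 1.21 for 6a14 and between 0.29 and 0.93 for 9e2.

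Among the remaining lists, those of other tissues in the carcass had medians of 0.19 for 7 venom gland genes, -0.21 for 6 genes of nervous tissue, 0.08 for 8 immune genes and -0.11 for 10 genes of cuticle and chitin. The gut-type genes had a median of 0.45, and of 0.14 without Wma2. Lysosome genes had 41 of 50 values above 0 (median 0.19) and peroxisome genes 25 of 31 (median 0.19). None stood in a complete list of this comparison, but the study picked all of them from other comparisons that share bees with it. Their counts are therefore not independent evidence of a direction. All 25 genes of a MAPK list lay below 0 (median -0.21), all of them picked from this comparison, and dual oxidase is the called one. The circadian repressor clockwork orange (LOC100652291) had a log2 fold change of -0.78 (SE 0.21, adjusted p = 0.0711), and ras-responsive element-binding protein 1 (LOC100642838) had -1.12 (SE 0.37, adjusted p = 0.145). A mucin-5AC gene (LOC100649715) had 1.91 (SE 0.80, adjusted p = 0.229), with 23% of its summed CPM in bee 1 of H4.

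**Figure D5:**
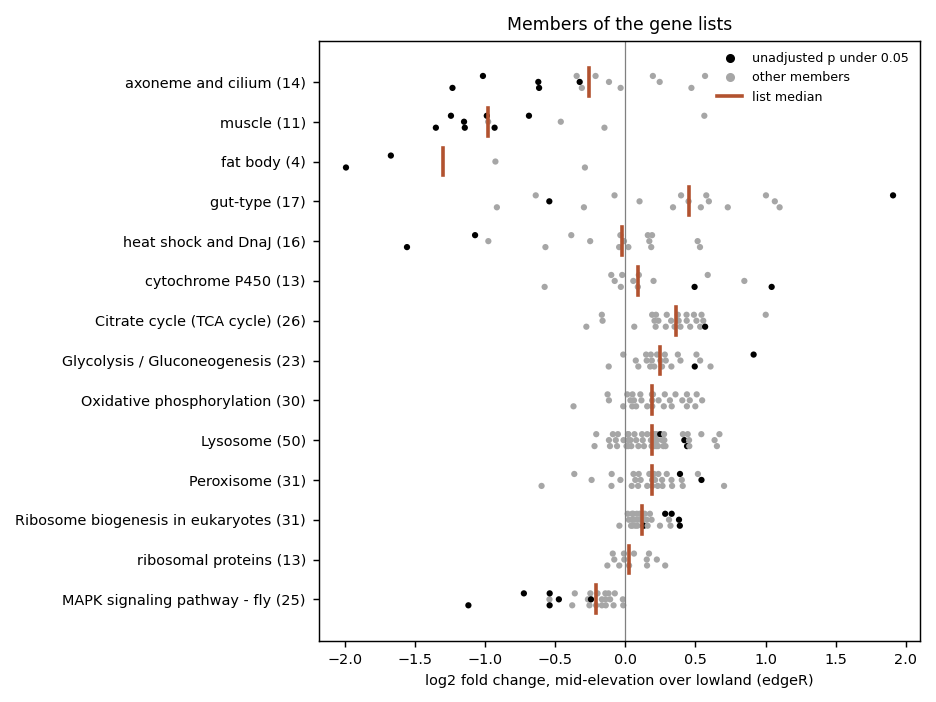
Log2 fold change of the members of each gene list (x axis, 1 point per gene) with the list median, a line at 0 and black points for an unadjusted p under 0.05. The muscle, fat body and axoneme lists have medians of -0.98, -1.30 and -0.26, and the citrate cycle list has 0.36.

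The change at the grazed sites was set against that between other sites of the gradient. The other sites were 4 highland sites (21 bees, ungrazed) and 3 valley lowland sites (15 bees, ungrazed), which share no bee with the grazed comparison. Of the highland bees, 9 came from H6 and 2 from Wmb5. The highland site Wmb4 (1655 m, 5 bees) entered the fit but not this contrast. Height, grazing and transect all set the comparisons apart and cannot be told apart. In the grazed comparison each transect holds both belts. At the other sites the lowland bees all come from the valley transect and the highland bees all from Hintersee or Watzmann. Between these highland and valley bees, 138 of 9760 genes were called in edgeR (1.41%), 54 higher and 84 lower. Of the 13 genes called in the grazed comparison, 10 had the same sign at the other sites and 0 were called or had an unadjusted p under 0.05 there. No share over all genes stands beside the 10, so that no agreement is read from them. The test of the difference between the changes called 119 genes (1.22%) at an adjusted p under 0.05, with a lower grazed change in 105 and a higher one in 14. Of the 109 that were also tested in the 40 bees, 108 had opposite signs, 95 being lower at mid-elevation and higher in the highlands. Genes picked for a large difference tend to have opposite signs, so that this count largely restates the choice. The 2 genes with the smallest p were LOC100647964, with -0.78 at the grazed sites and 1.23 at the other sites (difference -2.01, adjusted p = 0.0232), and LOC100650495, with -1.41 and 1.05 (difference -2.47), where bee 5 of Wmb1 carried 20.3% of the summed CPM. Most of these genes were thus not called in either comparison on its own: 1 of the 119 was called at the grazed sites and 20 at the other sites.

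Fitted fold changes of muscle genes had opposite signs in the comparisons, but the medians of their sums did not. The median log2 fold change of the list was -0.98 at the grazed sites and 0.94 at the other sites, where 10 of 11 genes lay above 0, and 6 of the 11 genes differed by the test of the difference. None of them did without H2, H4, H5, T4, T5, Wma2, Wma3, Wmb1 or Wmb3, or in limma-trend. Over the 12 listed genes tested in 81 bees, muscle sums came to 1839, 3795 and 16771 CPM in the mid-elevation bees and 2280, 3197 and 34249 CPM in the grazed lowland bees. At the other sites they came to 2440, 4677 and 10498 CPM in the highland bees and 2442, 3436 and 6416 CPM in the valley lowland bees. The median was thus higher at the greater height in both comparisons, while the highest bees of all were grazed lowland ones. For the titin homolog (LOC105666838) the difference was -2.42 (adjusted p = 0.0339), and for muscle actin (LOC100648239) it was -1.84 (adjusted p = 0.0450). At the other sites the titin homolog had medians of 4.98 CPM in highland bees and 4.89 CPM in valley lowland bees. Its highest bees there had 73.8 and 7.82 CPM. Muscle actin had medians of 141 and 84.1 CPM there. Of 16 heat shock and DnaJ genes 15 lay above 0 at the other sites (median 0.49) and 2 differed. No share over all genes stands beside this count or that of the muscle genes above 0 there. No direction is therefore read from either count. Vitellogenin (LOC100649251) differed by -2.45 (adjusted p = 0.0409), and heat shock cognate 70 kDa protein 4 (LOC100650203) by -3.25 (adjusted p = 0.0436). Vitellogenin had medians of 15.0 CPM in highland bees and 16.6 CPM in valley lowland bees, and highest bees of 144 and 25.3 CPM. The cognate gene had medians of 0.784 and 0.826 CPM there, and highest bees of 31.9 and 2.64 CPM. Both differences thus rest in part on few highland bees with high values. Of the genes called at the grazed sites, DYRK2 (LOC100642872) differed, with 0.04 at the other sites (difference -1.29, adjusted p = 0.0482). The median of the muscle difference was -1.87, and -1.20 without Wmb1. The number of genes with a difference was 0 without H5, T4, Wma2, Wmb1 or Wmb3 and 479 without Wma1, in edgeR.

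Within the 40 bees the change along the Hintersee and the Watzmann transects could be set against each other, with 5 mid-elevation and 5 lowland bees on Hintersee and 20 and 10 on Watzmann. The edgeR test of that difference called 0 of 9404 genes, 171 genes had an unadjusted p under 0.05 (1.82%), and the count was 0 under every alternative run, DESeq2 and limma included. Split by transect, edgeR called 0 genes on Watzmann alone (1070 at an unadjusted p under 0.05) and 0 on Hintersee alone (481). All 13 called genes kept their direction on both transects, which their choice on these same bees favours. No share over all genes stands beside this count, so that no agreement is read from it.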

How the data were processed

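Per the labels and the study's methods, the authors trimmed reads with cutadapt 2.5, aligned them with STAR 2.7.2b to the Bombus terrestris assembly Bter_1.0 and counted them strand by strand with featureCounts 1.6.4, as exon reads per gene. The deposited values are estimated counts, because the authors counted multiply matching reads as fractions, and are not normalised. Coordinates and sequences are not analysed here. Grazing and site values come from the study's site records. Counts were rounded, filtered with filterByExpr by group, scaled with TMM and tested with edgeR 4.0.16 in R 4.3.3. Log2 CPM used a prior count of 2. The standard error was obtained as |log2 fold change| over the root of F. Depth per bee is given above; lower genes are less precise. Permutation tests used 100000 resamples over bees. The rule for the genes named was: the called genes, the 2 members of each list with the smallest p and the 2 genes of smallest p in each difference test. LOC100643608 is outside it. Members and lists were chosen with earlier results of these data known. Names cover 1777 genes; lists of tissues, stress genes and pathways use these names or the study's enrichment tables. Alternatives were DESeq2 1.42.0, limma 3.58.1, other scaling and filters, covariates and left-out sites or bees. The fits were tested on simulated data with known changes.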

Additional observations from a re-analysis of the deposited data

Results flagged for a closer look

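In groups of 5 sites, a site counted as standing apart if its gap to the next site was large against the range of the group, which chance gives in about 1 in 20 groups. Of 44 groups examined, 6 stood apart. At mid-elevation, Wmb2 was highest in LOC100647836 (mean log2 CPM 6.40) and in the summed muscle transcripts (6675 CPM). Wma2 was lowest in synaptotagmin-7 (LOC100647956, 3.49), highest in cystinosin (LOC100651423, 7.33) and lowest in the slope on exon length (0.114). Wma3 was highest in vasa (LOC100645309), the 1 gene of the ovary list (mean 86.7 CPM), with 174 CPM in bee 2 of that site.

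The change at the grazed sites differed from that at the other sites in 119 genes at an adjusted p under 0.05 (edgeR). Among the genes named, DYRK2 (LOC100642872) differed by -1.29, the titin homolog (LOC105666838) by -2.42, muscle actin (LOC100648239) by -1.84, vitellogenin (LOC100649251) by -2.45 and heat shock cognate 70 kDa protein 4 (LOC100650203) by -3.25. For the titin homolog, vitellogenin and the cognate gene, medians of highland and valley lowland bees were close, and the highest bees differed.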

How the results depend on the processing

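Counts are given as higher and lower. DESeq2 called 8 and 73 genes, and 8 and 71 with a fold-change prior. limma-trend called 0 and 0 (1384 at an unadjusted p under 0.05). All 81 bees in 1 fit gave 9 and 59, and height as a number 2 and 19. The 6 lowland sites together gave 15 and 26. The transect as covariate gave 0 and 7, the fat body score 0 and 4 and the gut-type score 0 and 2. Calls were 0 and 0 with a random site term, with sums over each site, with plant cover (329 at an unadjusted p under 0.05) or the length slope as covariate (928), on Watzmann alone and on Hintersee alone. Bee numbers do not pair the bees (correlation of deviations 0.040 to 0.546), and a replicate block by bee number gave 0 and 0 (1406). Leaving out 1 site or 1 bee gave 0 to 42 higher and 0 to 302 lower. Genes whose change differed from that at the other sites were 229 with DESeq2, 222 with its prior, 0 with limma-trend (1301) and 0 to 479 without 1 site. Direction reversed for LOC100643258 with the fat body score (0.0553) and, with plant cover, for LOC100649715 (-0.0771), LOC100643942 (-0.0043) and LOC100643538 (-0.0873). The causes were not tested. Fits with the muscle or fat body score, without single bees, and the difference test without single sites were chosen after seeing the data.

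With 3 lowland sites, 1 site moves every count, and low genes rest on few reads per bee. Foragers of unknown age and colony, bulk tissue, and descriptions for only part of the genes limit what the lists cover.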

Other observations

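Single bees carried much of a few values that belong in no comparison above. LOC100643608 had a log2 fold change of 3.25 (SE 0.97, edgeR adjusted p = 0.115), with 57.2% of its summed CPM in bee 5 of Wmb2, and was singled out after its values were seen. The same bee held 34.4% of the summed CPM of venom serine protease 34 (LOC100644867), whose log2 fold change was 1.66 (SE 0.59, adjusted p = 0.167). This is also the mid-elevation bee with the highest muscle sum, at 16759 CPM.

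The 2 genes with the smallest p in the difference between transects were LOC100650696 (difference 0.53, unadjusted p = 0.00134) and LOC100644742 (difference 2.25, unadjusted p = 0.00165), and neither passed the adjustment (smallest adjusted p 0.99995).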
